A study of Mus musculus with 9 samples.

Results

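In round spermatids, much of the mRNA for sperm proteins is made well before it is translated. The genes described here encode 10 regulators of that storage and delayed translation: the Y-box proteins Ybx2 and Ybx3, the cytoplasmic poly(A) polymerase Papolb, the poly(A)-binding protein Pabpc1 and its inhibitor Paip2, the RNA helicases Ddx25 and Ddx4, and the RNA-binding proteins Dazl, Boll and Cpeb2. They were taken by gene name from a table of 55414 mouse genes, and each of the 10 passed the filter on low counts that left 25128 genes for testing. The cells were round spermatids (RS) sorted by flow cytometry from testes of Stra8-Tom mice, in which Stra8-iCre, a Cre recombinase expressed from the spermatogonial stage onward, switches on tdTomato in the germ lineage. The labels give the genotype as WT, the mice were on a C57Bl/6 background, all 3 groups carried the Cre and the reporter, and the methods name prepubertal and adult mice without saying which gave these libraries. RS cells were incubated for 24 h in medium that contained lactate, pyruvate and glutamine. There were 3 groups of 3 libraries: vehicle (0.15% DMSO, libraries 1, 2 and 3), 24 mM oxamate, an inhibitor of lactate dehydrogenase (libraries 4, 5 and 6), and 24 mM oxamate with 0.3 mM octyl-L2HG, a cell-permeable ester of L-2-hydroxyglutarate (libraries 7, 8 and 9). Comparing oxamate with vehicle asks what follows inhibition of the enzyme family that makes L-2HG, a metabolite abundant in testis. Adding octyl-L2HG asks what changes when L-2HG is supplied again. No group had octyl-L2HG without oxamate, so restored L-2HG and an effect of the ester itself cannot be told apart. Each group was 3 parallel incubations, and nothing states whether these came from separate mice or cell preparations, so the p-values measure the spread between these libraries, which may be technical.

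Transcripts made in round spermatids are packaged with proteins and held untranslated until the spermatid elongates and its nucleus is compacted. Y-box proteins coat stored mRNA, the poly(A) tail and its binding protein set how well an mRNA recruits ribosomes, and DEAD-box helicases of the chromatoid body, a cytoplasmic RNA granule of spermatids, remodel and sort RNA. The DAZ family and CPEB proteins bind sequences in the 3′UTR and switch individual mRNAs on or off. RNA abundance was measured here, not protein, poly(A) tail length or translation.

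Oxamate alone moved none of the 10 genes past the threshold, while octyl-L2HG added to oxamate was accompanied by small changes in 4 of them. The shares of all genes tested were 5.19% and 11.2%. Of the genes as abundant as these 4 (a mean level of 20000 normalized counts or more), oxamate called 1.29% higher and 0.323% lower. At the second step 24.2% of these abundant genes were called. Ddx4 rose by 20.3%, Papolb by 18.1% and Pabpc1 by 17.3% against oxamate, and Cpeb2 fell by 13.6%. With both compounds against vehicle, no gene of the 10 passed, beside 18.0% of all genes. Threshold here means an adjusted p-value under 0.05 from the quasi-likelihood test of edgeR with Benjamini-Hochberg adjustment over all 25128 genes, fitted to all 9 libraries. The 4 calls lie close to that threshold, and leaving out 1 library with both compounds ended most of them, as detailed below.

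Each library held between 32339533 and 39888396 counted reads, of which the 10 genes took between 1.25% and 1.5%. Replicates were not duplicates of each other, since every pair within a group differed by more than counting noise (the chi-square statistic divided by its degrees of freedom was lowest, 1.98, for libraries 5 and 6 and highest, 20.7, for libraries 4 and 6). Oxamate library 4 stood apart from libraries 5 and 6, and values without it are given for the called members and, grouped, for other genes in which it lay apart. All 14 round spermatid markers were detected, with summed normalized counts of 105270.0 to 108920.0 with vehicle, 102340.0 to 103750.0 with oxamate and 98827 to 100860.0 with both compounds, so the sum was lower at each step with no overlap between groups. Of the 14, 4 (Tnp1, Tnp2, Prm1 and Prm2) are also among the late-translated transcripts described below, and their sum went from 24989 to 28235 with vehicle to 20253 to 21403 with oxamate and 16189 to 17391 with both compounds. The other 10 summed to 78850.0 to 82634 with vehicle, 82084 to 82459 with oxamate and 82555 to 83473 with both compounds. Of these 10, none was called with oxamate and Catsper3 alone fell with octyl-L2HG against oxamate, while with both compounds against vehicle 3 rose (Acrv1, Acr and Spaca7) and 3 fell (Tssk1, Tssk2 and Catsper3). The 12 spermatocyte markers were detected as well, at 35777 to 39582 with vehicle, 34540 to 39287 with oxamate and 39182 to 40239 with both compounds. At the octyl-L2HG step 2 of these 12, Sycp2 and Spdya, rose and none fell, and the median log2 fold change over the 12 was -0.03. Spermatogonial markers summed to between 494 and 568, Sertoli cell markers to between 133 and 227, and Leydig cell markers to between 23.0 and 41.2, with Fshr at 0 counts and Gata4, Rhox5, Cldn11, Insl3, Hsd3b1 and Hsd3b6 at 1 to 7 counts over the 9 libraries. Peritubular myoid cell markers summed to 93.3 to 121 with vehicle, 76.2 to 93.2 with oxamate and 66.9 to 74.9 with both compounds, again lower at each step. Macrophage markers summed to 176 to 214, 138 to 152 and 130.3 to 154 (C1qa at 1 count and Lyz2 at 0), and endothelial cell markers to 571 to 630.1, 588 to 626 and 487 to 535. The part of cell composition in the values below was not tested.

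Levels of different genes can be compared only per length. Divided by exon length (union of exons in GENCODE vM21, matched by gene identifier), Ybx2 had the highest level of the 10, with 49980 normalized counts per kb over the 9 libraries, which ranked 5 among the 25027 genes with a length. Ybx3 followed with 27900 per kb (rank 19) and Pabpc1 with 25160 per kb (rank 26), and these neighbours overlapped between libraries. Papolb with 12840 per kb and Ddx4 with 9885 per kb also overlapped with each other. Below them stood Ddx25 with 4741 per kb, Cpeb2 with 3138, Paip2 with 1435 and Boll with 1030.0, and none of these overlapped with its neighbour in the order. Dazl was last with 112 per kb (rank 7517), 9.19 times below Boll, its relative in the DAZ family. Transcripts of the Y-box proteins and of Pabpc1 thus stood among the most abundant of these cells per length, and Dazl, which is best known from earlier germ cells, far below them. The values per kb carry the error of the annotation, which is of another build than the one the reads were aligned to.

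**Figure D1:**
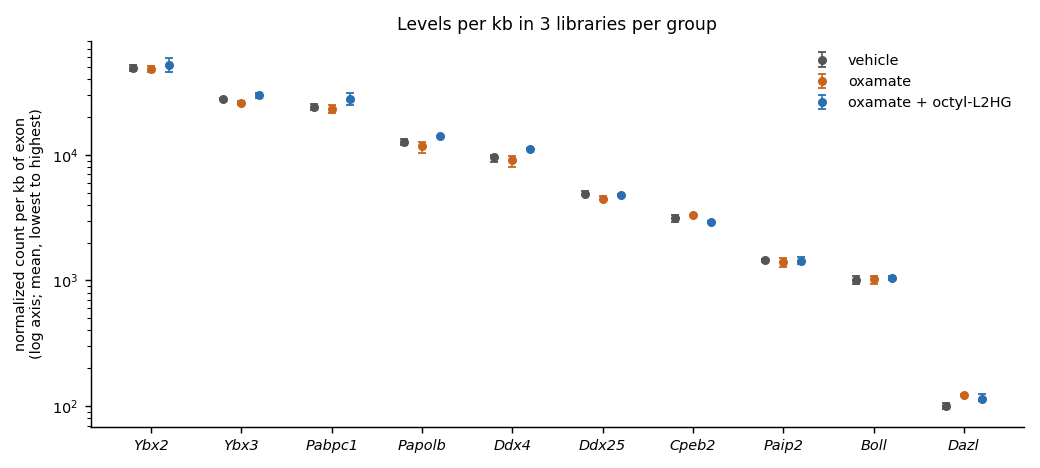
Normalized count per kb of exon (log axis) for the 10 genes, ordered by level. Points are means of 3 libraries per group and bars run from the lowest to the highest library. Ybx2 stands at 49980 per kb and Dazl at 112 per kb over the 9 libraries, and the differences between groups are small beside those between genes.

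The Y-box proteins were not called in any comparison. Ybx2, the germ cell Y-box protein needed for the stability of stored mRNA, had 98194, 87549 and 92998 normalized counts in vehicle libraries 1, 2 and 3, 96689, 86940 and 91536 in oxamate libraries 4, 5 and 6, and 110783, 97269 and 85965 in libraries 7, 8 and 9 with both compounds. The 3 groups overlapped, and library 7 was the highest of the 9 while library 9 was the lowest. The log2 fold change was -0.01 for oxamate against vehicle (95% interval -0.17 to 0.14) and 0.07 for octyl-L2HG against oxamate (-0.09 to 0.22), the latter with an adjusted p of 0.657 from edgeR. Without library 7 the sign of the second value turned (-0.02).

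Ybx3, a Y-box protein also made in somatic tissues, had 86154, 86993 and 85427 normalized counts with vehicle, 76368, 80046 and 82933 with oxamate and 95781, 91062 and 87239 with both compounds. All 3 oxamate libraries lay below all vehicle libraries, and all 3 libraries with both compounds lay above both other groups. The changes missed the threshold: the log2 fold change was -0.11 ± 0.06 (SE) for oxamate against vehicle (adjusted p = 0.359, edgeR) and 0.17 ± 0.06 for octyl-L2HG against oxamate (adjusted p = 0.0633, edgeR). The second value passed under 5 of the 16 alternative settings, DESeq2 among them (adjusted p = 0.0144), and the adjusted p ran from 0.0144 to 0.237 over the 16.

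Of the genes for the poly(A) tail and its binding protein, Papolb and Pabpc1 rose with octyl-L2HG and Paip2 was not called. Papolb, the testis-specific cytoplasmic poly(A) polymerase of round spermatids, had 51099, 56704 and 52776 normalized counts with vehicle, 43996, 51770 and 53870 with oxamate and 60423, 59920 and 59459 with both compounds. The libraries with both compounds lay close together and above the other 6 libraries, and oxamate library 4 was the lowest of the 9. Against oxamate, Papolb rose by 18.1% with octyl-L2HG (log2 fold change 0.24 ± 0.07, SE, 95% interval 0.10 to 0.38, adjusted p = 0.0271, edgeR). Without oxamate library 4 the log2 fold change was 0.16 and was still called (adjusted p = 0.0393). Papolb lies inside Radil, on the same strand, so reads could be assigned to either or to neither. Radil, which had 299 normalized counts per kb against 12840 for Papolb, ran from 249 to 406 per kb over the libraries and moved the other way, with a log2 fold change of 0.38 for oxamate against vehicle (adjusted p = 0.0148, edgeR) and -0.29 for octyl-L2HG against oxamate (adjusted p = 0.0446).

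Pabpc1, the cytoplasmic protein that coats poly(A) tails and helps recruit the cap-binding complex, had 150126, 158117 and 165471 normalized counts with vehicle. The oxamate libraries had 141286, 154290 and 163630, and those with both compounds 202083, 182345 and 163846. Library 7 was the highest of the 9, and library 9 lay only just above the highest oxamate library. The rise against oxamate was 17.3% (log2 fold change 0.23 ± 0.07, SE, 95% interval 0.08 to 0.38, adjusted p = 0.0380, edgeR). Without library 7 it was 0.16 and not called (adjusted p = 0.250), and without oxamate library 4 it was 0.18 and called (adjusted p = 0.0384). Of the stretches of 50 bases in Pabpc1 transcripts, 9.92% occur also in a transcript of another gene, whereas the share was 0.382% for Papolb, shared with Papola, and 1.70% for Paip2. The other 7 members share none. Only exact matches among annotated transcripts were counted, so copies with mismatches or outside the annotation were not covered.

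Paip2, which displaces Pabpc1 from poly(A) tails, had between 4575 and 5417 normalized counts in all 9 libraries, and the 3 groups overlapped. The log2 fold change was -0.04 for oxamate against vehicle (95% interval -0.18 to 0.11) and -0.01 for octyl-L2HG against oxamate (-0.15 to 0.14). The sign of the second value turned under 10 of 16 alternative settings. The gene overlaps the end of Slc23a1 on the opposite strand, and the strand setting of the read counting is not given in the sources used here.

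Of the RNA helicases, Ddx4 rose with octyl-L2HG and Ddx25 was not called. Ddx4, the germ cell DEAD-box helicase that marks the chromatoid body, had 26596, 30187 and 29487 normalized counts with vehicle, 24183, 28027 and 29555 with oxamate and 34317, 32940 and 32861 with both compounds. The libraries with both compounds were the 3 highest of the 9, and oxamate library 4 was the lowest. Ddx4 rose by 20.3% with octyl-L2HG against oxamate (log2 fold change 0.27 ± 0.07, SE, 95% interval 0.12 to 0.41, adjusted p = 0.0165, edgeR), the largest log2 fold change among the 10 genes at that step. Without oxamate library 4 it was 0.19 (adjusted p = 0.0175). Against vehicle, the log2 fold change with both compounds was 0.19 ± 0.07 (adjusted p = 0.0629, edgeR), and this passed under 7 of 16 alternative settings, with DESeq2 as the test among them.

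Ddx25, a testis helicase that carries mRNA out of the nucleus and keeps it in the chromatoid body, had 35690, 33694 and 32955 normalized counts with vehicle, 32714, 30135 and 30544 with oxamate and 33427, 32925 and 33770 with both compounds. The oxamate libraries were the 3 lowest of the 9, without overlap with either other group. The log2 fold change was -0.13 ± 0.06 (SE) for oxamate against vehicle and 0.07 ± 0.06 for octyl-L2HG against oxamate, with adjusted p-values of 0.286 and 0.524 from edgeR. The first reached the threshold only without oxamate library 4 (log2 fold change -0.17, adjusted p = 0.0461).

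Among the sequence-specific RNA-binding proteins, Cpeb2 fell with octyl-L2HG, Dazl stood higher with oxamate without passing the test, and Boll did neither. Cpeb2, which binds cytoplasmic polyadenylation elements in 3′UTRs, had 25392, 22861 and 26008 normalized counts with vehicle, 26083, 26128 and 25701 with oxamate and 23402, 22634 and 22534 with both compounds. The oxamate libraries lay close together and above all 3 libraries with both compounds, while vehicle library 2 lay among the latter. Cpeb2 fell by 13.6% with octyl-L2HG against oxamate (log2 fold change -0.21 ± 0.06, SE, 95% interval -0.34 to -0.08, adjusted p = 0.0279, edgeR). Without oxamate library 4 it was -0.20 and called (adjusted p = 0.0105). The log2 fold change was -0.14 with both compounds against vehicle (adjusted p = 0.134, edgeR). Cpeb2 overlaps an antisense gene, and without the strand setting reads of the 2 cannot be told apart.

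Dazl, a germline translational activator, had 361, 402 and 383 normalized counts with vehicle, 460, 477 and 456 with oxamate and 425, 473 and 416 with both compounds. All 6 oxamate-treated libraries lay above the 3 vehicle libraries. Against vehicle, oxamate gave a log2 fold change of 0.29 ± 0.09 (SE, 95% interval 0.11 to 0.47) and missed the threshold (adjusted p = 0.0551, edgeR). It was called without oxamate library 4 and under 2 of the other filters on low counts, and over the 16 alternatives the adjusted p ran from 0.0304 to 0.179. Boll, the DAZ family protein needed for spermatid development, had between 3292 and 3827 normalized counts in the 9 libraries, with log2 fold changes of 0.04 for oxamate against vehicle (95% interval -0.11 to 0.20) and 0.00444 for octyl-L2HG against oxamate (-0.15 to 0.16).

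**Figure D2:**
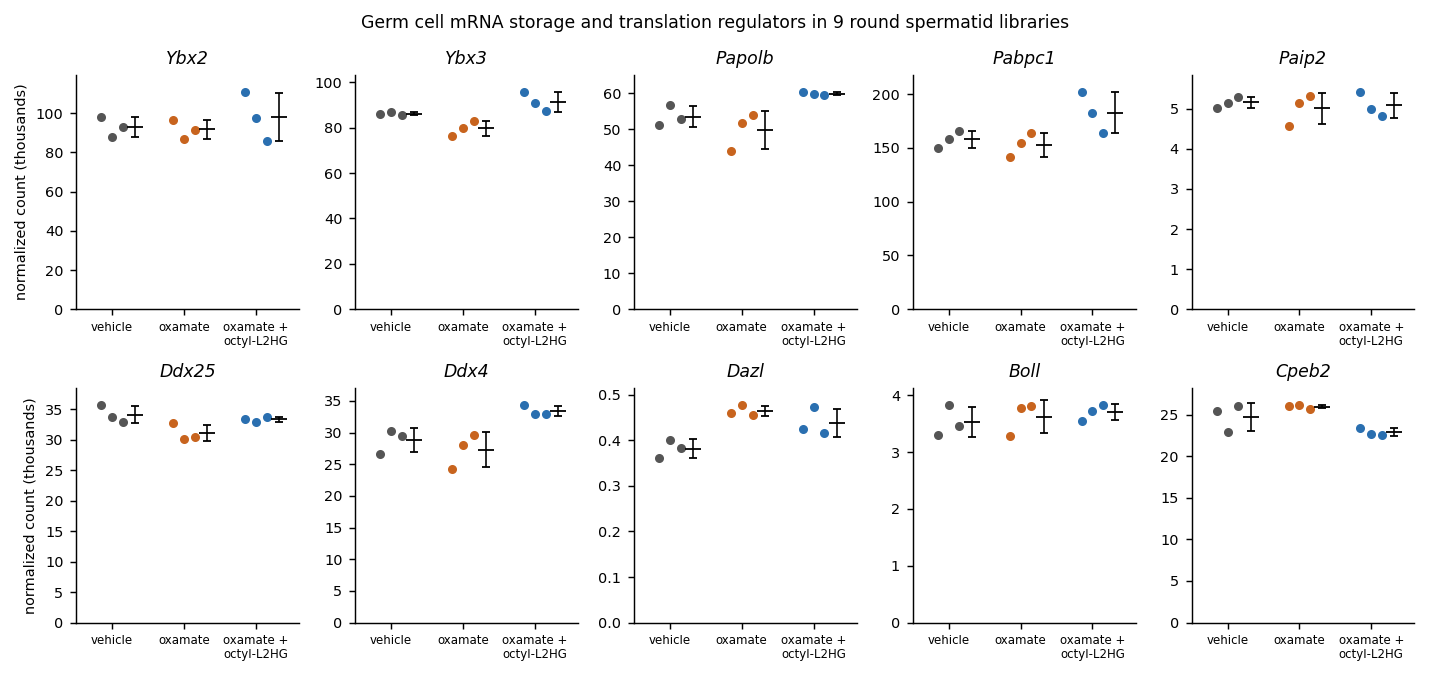
Normalized counts (in units of 1000, axes from 0) of the 10 genes in each of the 9 libraries, with libraries 1 to 9 from left to right and the mean ± SD of 3 libraries beside each group. For Papolb, Ddx4 and Pabpc1 the 3 libraries with both compounds lie above the 3 oxamate libraries, for Cpeb2 they lie below them, and oxamate library 4 is the lowest oxamate library for Papolb, Pabpc1 and Ddx4.

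Counted over the 10 genes, oxamate against vehicle gave 0 calls, against 5.19% of all genes tested (3.97% higher and 1.22% lower). A mean level of 20000 normalized counts or more was reached by 310 genes, 7 of the 10 among them. Of those 310, 1.29% were called higher and 0.323% lower. At an unadjusted p under 0.05 edgeR gave 2 of the 10 (Ddx25 and Dazl), beside 4348 of the 25128 genes, so that share was near that of all genes, and DESeq2 gave 0 calls. The 2 groups did not overlap for 3 of the 10 genes, beside 21.3% of all genes and 59 of those 310 abundant genes. The median log2 fold change was -0.04 over the 10 and -0.01 over all genes. Of the 10, 7 were below 0.

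Octyl-L2HG against oxamate gave 4 calls among the 10, 3 higher and 1 lower, beside 11.2% of all genes (3.18% higher and 8.06% lower). Calls were more frequent among abundant genes, of which 20.7% were called at a mean level of 1000 normalized counts or more and 24.2% at 20000 or more (20.3% higher). All 4 called members are among the 7 with a mean of at least 20000, so the share to read them against is the last. The groups did not overlap for 6 of the 10 genes, beside 28.8% of all genes. These 6 are all among the 7 abundant members, and of the 310 genes at or above 20000, 177 did not overlap. The median log2 fold change was 0.07 over the 10, -0.04 over all genes and 0.09 over those 310 genes. With both compounds against vehicle there were 0 calls by edgeR (3 at an unadjusted p under 0.05, beside 7527 of the 25128 genes) and 1 by DESeq2 (Ddx4), beside 18.0% of all genes (7.48% higher and 10.6% lower). Without oxamate library 4 the same comparison called 4 (Papolb, Pabpc1, Ddx4 and Cpeb2), while the number over all genes rose from 4534 to 6194. The groups did not overlap for 4 of the 10, beside 36.5% of all genes and 171 of the 310 at or above 20000. In the test for any difference among the 3 groups the same 4 genes were called as at the octyl-L2HG step, beside 19.8% of all genes. Both steps share the oxamate libraries, so a value low in these libraries lowers the first log2 fold change and raises the second.

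**Figure D3:**
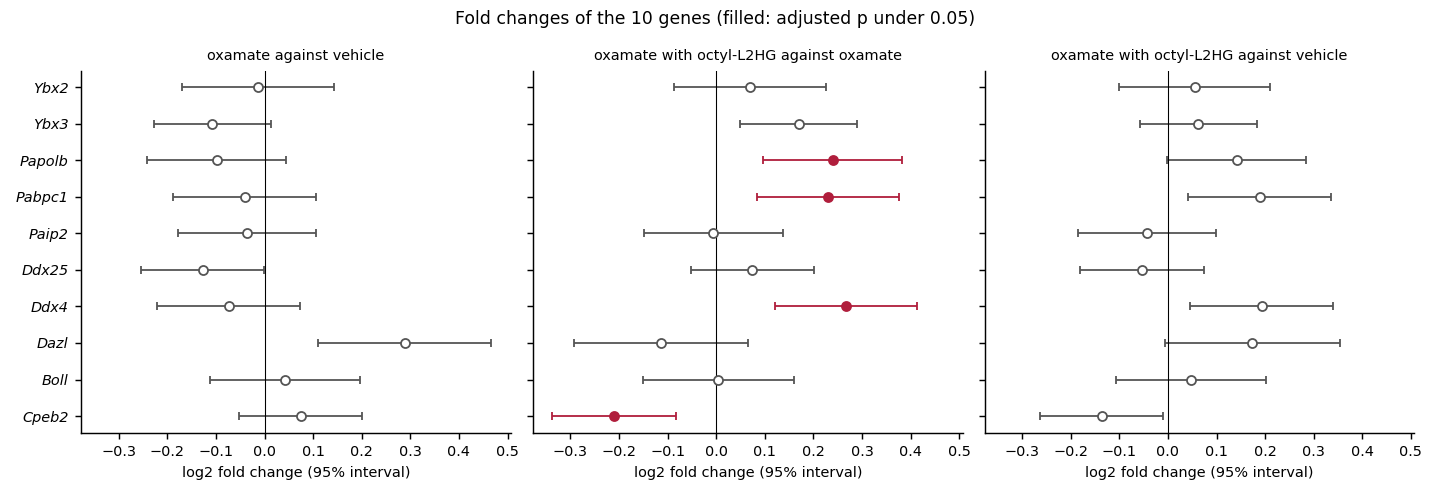
Log2 fold change with its 95% interval for each of the 10 genes in the 3 comparisons of edgeR. Filled red points passed an adjusted p of 0.05, which 4 genes did in the middle panel (Papolb, Pabpc1, Ddx4 and Cpeb2) and none in the others.

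The direction of each of the 4 calls was the same under all 16 alternative settings, with log2 fold changes of 0.19 to 0.32 for Ddx4, 0.16 to 0.29 for Papolb, 0.16 to 0.30 for Pabpc1 and -0.26 to -0.17 for Cpeb2. The calls themselves were less steady. Ddx4 was called under 12 settings, Papolb and Pabpc1 under 10 each and Cpeb2 under 9. Without library 7 or library 8 none of the 4 was called, without library 9 only Pabpc1 was, and without oxamate library 5 only Ddx4 was. Cpeb2 was also lost without vehicle library 3. Scaled by total counts, Cpeb2 alone was called.

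**Figure D4:**
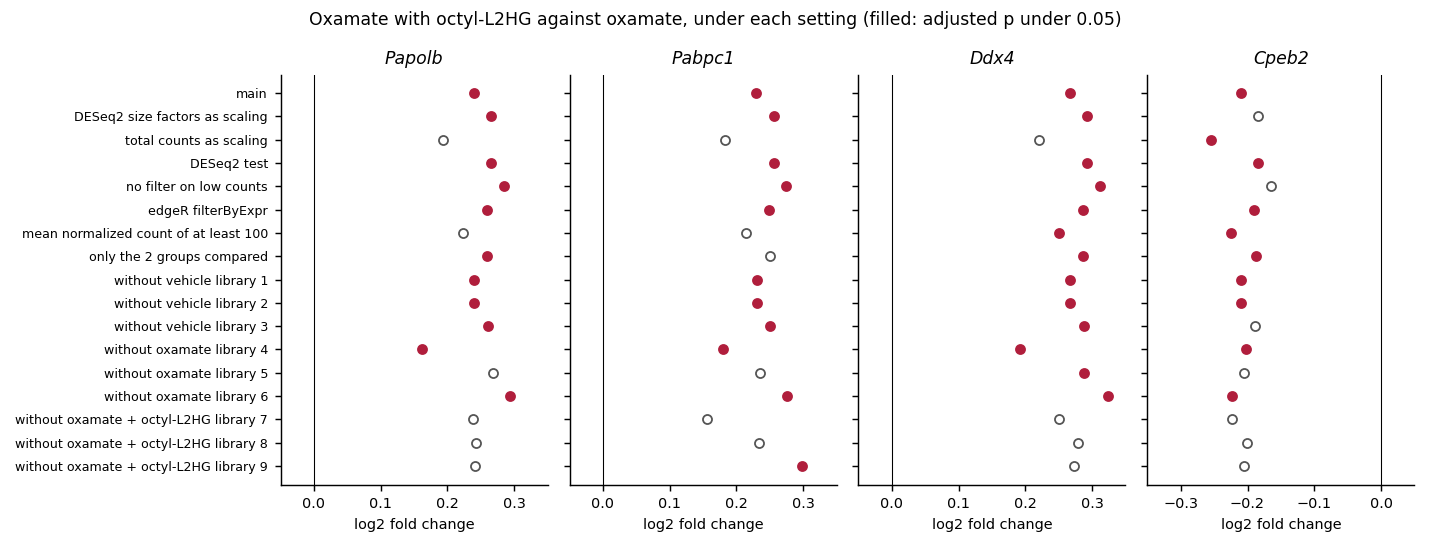
Log2 fold change of octyl-L2HG with oxamate against oxamate for the 4 called genes (x axis) under the main and 16 alternative settings (y axis). Filled points passed an adjusted p of 0.05. Ddx4, Papolb and Pabpc1 stay above 0 and Cpeb2 below 0 throughout, while the calls are lost without library 7 or 8.

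Promoter sequences are shown for Ddx4 and Papolb, because both rose at the octyl-L2HG step. RefSeq windows of 300 bases around annotated starts (build GRCm38.p6) were found for 7 of the 10 genes, with 9 windows in all. They were searched on both strands for CCAAT, the core of the Y-box DNA element, for CTGATTGG, the longer Y-box, which contains the reverse complement of CCAAT, and for TGACG, the half-site of cAMP response elements. CCAAT occurred in 6 of the 9 windows and in 37.4% of 32851 promoter windows of the mouse genome, TGACG in 2 of the 9 and 20.8%, and CTGATTGG in 2 of the 9 (one of Ddx4, one of Boll) and 4.10%. A match is a stretch of letters and was not tested as a binding site. In the sequences below, capitals mark CCAAT and TGACG or their reverse complements. In Ddx4 a CCAAT shares its last base with a TGACG.
Ddx4, chr13:112652261-112652560, minus strand: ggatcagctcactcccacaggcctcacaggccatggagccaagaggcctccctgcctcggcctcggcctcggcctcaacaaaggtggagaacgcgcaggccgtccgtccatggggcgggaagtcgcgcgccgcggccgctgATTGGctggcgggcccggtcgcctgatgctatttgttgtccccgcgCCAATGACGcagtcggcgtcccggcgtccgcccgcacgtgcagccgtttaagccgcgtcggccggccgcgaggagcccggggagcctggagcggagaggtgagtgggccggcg
Papolb, chr5:142530027-142530326, minus strand: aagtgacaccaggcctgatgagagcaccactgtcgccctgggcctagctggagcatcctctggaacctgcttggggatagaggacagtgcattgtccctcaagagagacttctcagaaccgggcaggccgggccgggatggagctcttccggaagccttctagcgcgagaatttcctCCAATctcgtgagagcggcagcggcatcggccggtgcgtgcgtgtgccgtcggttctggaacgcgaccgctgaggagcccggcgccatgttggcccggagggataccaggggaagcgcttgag

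CPEB proteins are known for binding the cytoplasmic polyadenylation element, of which TTTTAT is one form, in the 3′UTR of their targets. In the GENCODE vM21 transcript with the longest coding sequence of each gene, TTTTAT occurred in the 3′UTR of 9 of the 10 genes (Paip2 lacked it), beside 8239 of 16479 genes, whose median 3′UTR of 871 bases was shorter than the 1359 bases of the 10. Cpeb2 itself had 20 copies in 3777 bases, a number that 0.775% of the 2064 genes with a 3′UTR of at least 3000 bases reached, where the median was 4 copies. The copy nearest the stop codon is shown for each of 3 members that changed with octyl-L2HG, with these letters in capitals. A match was not tested as a site of Cpeb2.
Cpeb2, position 255 of the 3′UTR: ctccaagttatTTTTATatgtaaagtta
Ddx4, position 53 of the 3′UTR: gaagaaagagtTTTTATttttaaaattt
Pabpc1, position 246 of the 3′UTR: acaaattaatgTTTTATagaccctggga

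Relatives of the members gave values beside which the 4 calls can be read. Pabpc2 and Pabpc6, further cytoplasmic poly(A)-binding proteins, rose with octyl-L2HG against oxamate, as Pabpc1 did. Pabpc2 had 46440, 52169 and 55411 normalized counts with oxamate and 65105, 61745 and 58675 with both compounds (log2 fold change 0.24 ± 0.07, SE, adjusted p = 0.0223, edgeR). Pabpc6 had 18543, 20579 and 21610 with oxamate and 27988, 26167 and 25068 with both (0.36 ± 0.07, adjusted p = 0.00177), and its rise was called under all 16 alternative settings. No stretch of 50 bases of either transcript occurs in Pabpc1 or in another gene. Pabpc1l, at a mean of only 56.7 normalized counts, fell (-0.79 ± 0.19, adjusted p = 0.0104, edgeR), a call kept in 7 of the 9 settings that leave out a library. Pabpc4 had 8 counts over all 9 libraries and was not tested. Pabpc5, named after its values were seen, fell as well (-1.91 ± 0.38, adjusted p = 0.00223), from 20.2 ± 3.6 normalized counts (SD, n = 3) with oxamate to 5.51 ± 3.3 with both compounds, beside 13.2 ± 3.2 with vehicle, where the fall against vehicle was -1.31 ± 0.41 (adjusted p = 0.0296).

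Ybx1, the Y-box protein of all tissues, had 46347, 50088 and 53088 normalized counts with oxamate and 65086, 60338 and 54603 with both compounds, and rose with octyl-L2HG (log2 fold change 0.24 ± 0.07, adjusted p = 0.0222, edgeR). The call was lost without library 5, 7 or 8, as were those of Pabpc1 and Pabpc2. Cpeb3 had 903, 926 and 845 with oxamate and 659, 729 and 689 with both compounds. It fell (-0.39 ± 0.08, adjusted p = 0.00239, edgeR), and the fall was called under all 16 alternative settings, that of Cpeb2 under 9. Cpeb4 had a log2 fold change of 0.02 and Cpeb1, at a mean of 6.64 normalized counts, of 0.35, neither called. Against vehicle, Cpeb4 rose with both compounds (0.26 ± 0.07, adjusted p = 0.0138, edgeR). That call was kept in 12 of 16 alternative settings and in 6 of the 9 that leave out a library. Papola, the nuclear poly(A) polymerase, had 0.10 at the octyl-L2HG step and rose against vehicle (0.27 ± 0.07, adjusted p = 0.00632). Papolg, Paip1 and Paip2b had log2 fold changes between -0.02 and 0.09 at the octyl-L2HG step, none called.

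Around the members, 6 lists of related genes were counted. Of all genes tested, 3.97% were called higher and 1.22% lower for oxamate against vehicle, 3.18% and 8.06% for octyl-L2HG against oxamate, and 7.48% and 10.6% for both compounds against vehicle. Calls were more frequent among the 4966 genes with a mean level of 1000 normalized counts or more, of which 8.82% were called higher and 0.584% lower for oxamate against vehicle, 10.6% higher and 10.2% lower for octyl-L2HG against oxamate, and 20.3% higher and 9.38% lower for both compounds against vehicle. Each list holds genes on both sides of that level, except the late-translated transcripts, so that for the other lists neither set of shares is matched to the whole list. In the list for poly(A) polymerases and 3′ end formation, 1 of 26 genes rose with oxamate against vehicle (Fip1l1, a subunit of the polyadenylation machinery, log2 fold change 0.29 ± 0.08, SE). Fip1l1 was called in 10 of 16 alternative settings and in 4 of the 9 that leave out a library, with adjusted p-values from 0.0129 to 0.139. With octyl-L2HG against oxamate none rose and 2 fell, the cleavage factors Cstf3 (-0.37 ± 0.08) and Clp1 (-0.30 ± 0.08). With both compounds against vehicle 1 rose (Papola) and 2 fell, Pabpn1, the nuclear poly(A)-binding protein (-0.28 ± 0.09), and Cstf3 (-0.24 ± 0.08). The medians of the list were 0.08, -0.01 and 0.05 in the 3 comparisons.

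The list of poly(A)-binding proteins and their partners held more calls. Of 17 genes tested, 2 rose with oxamate, Larp4b, which binds poly(A) and its binding protein (0.48 ± 0.07), and Larp1, which binds capped mRNA of the translation machinery (0.22 ± 0.06). The oxamate call of Larp1 was kept in 9 of 16 settings and in 3 of the 9 without a library, with adjusted p-values from 0.0154 to 0.157, whereas its call against vehicle with both compounds was kept in all 16. With octyl-L2HG against oxamate 3 rose and 3 fell, among them Pabpc6, Larp4b once more (0.35 ± 0.07) and Tob1, which brings deadenylases to mRNA (-0.54 ± 0.11). Larp4b had 779, 766 and 828 normalized counts with vehicle, 1132, 1038 and 1128 with oxamate and 1472, 1413 and 1396 with both compounds, so that the 3 groups did not overlap. Against vehicle 6 rose with both compounds, led by Larp4b (0.83 ± 0.07) and Larp1 (0.36 ± 0.06), and 3 fell, Tob1 among them (-0.49 ± 0.11).

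In the list for deadenylation and decapping, the enzymes that shorten the tail and remove the cap, all calls as fitted here were upward, as were most calls among abundant genes at the oxamate step. At the octyl-L2HG step 1 gene of the list was called lower with total counts as the scaling, with a filter at 100 normalized counts, or without oxamate library 4. With oxamate 3 of 26 genes rose, led by Eif4enif1, a repressor that binds the cap-binding protein (0.38 ± 0.07), and Cnot3, a subunit of the CCR4-NOT deadenylase (0.36 ± 0.085). With octyl-L2HG against oxamate 4 rose, led by Cnot9 (0.27 ± 0.08) and Cnot4 (0.26 ± 0.075), and without library 5, 7 or 8 none did. The call of Cnot9 was lost without any one of libraries 5 to 9 or vehicle library 2. With both compounds against vehicle 10 rose, led by Eif4enif1 (0.46 ± 0.07) and Cnot3 (0.41 ± 0.085).

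Of 37 genes for cap binding and translation initiation, 1 rose with oxamate, Eif5b, which joins the ribosomal subunits (0.39 ± 0.09), and 1 fell, the helicase Eif4a2 (-0.44 ± 0.09). At the octyl-L2HG step 5 rose, led by Eif5b (0.41 ± 0.09) and Eif2s1, the subunit of eIF2 that stress kinases phosphorylate (0.26 ± 0.07), and the scaffold Eif4g1 fell (-0.40 ± 0.08). With both compounds against vehicle 5 rose, led by Eif5b (0.80 ± 0.09) and Eif4b (0.24 ± 0.06), and 3 fell, led by Eif4a2 (-0.54 ± 0.09) and Eif4g1 (-0.42 ± 0.08). Eif5b had 4989, 6494 and 6657 normalized counts with vehicle, 6889, 8460 and 8362 with oxamate and 11047, 10737 and 10269 with both compounds. It thus rose at each step without overlap between groups.

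Among 41 other RNA-binding regulators of germ cells, 4 rose with oxamate (9.76%, beside 3.97% of all genes and 8.82% of the abundant ones) and none fell. Fxr2, a relative of the fragile X protein, had 1889, 1739 and 1899 normalized counts with vehicle and 3852, 3108 and 3076 with oxamate (0.87 ± 0.08). Pum2, a Pumilio repressor, rose with oxamate (0.47 ± 0.08) and fell again with octyl-L2HG (-0.46 ± 0.08), to 1422, 1434 and 1418 normalized counts beside 1353, 1399.8 and 1408 with vehicle. At the octyl-L2HG step 6 rose and 5 fell: the exportin Xpo1 (0.52 ± 0.08) and the meiotic regulator Meioc (0.37 ± 0.10) had the largest rises, and Rbmxl2, a splicing factor of germ cells (-0.77 ± 0.11), and Pum2 the largest falls. With both compounds against vehicle 10 rose, led by Fxr2 (0.90 ± 0.08) and Celf1 (0.63 ± 0.10), and 4 fell, led by Rbmxl2 (-0.90 ± 0.11) and Cpeb3 (-0.55 ± 0.08).

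The number of higher calls at the octyl-L2HG step depended on single libraries. It was as low as 1 among the 37 genes for initiation (without library 7), 1 among the 41 other regulators (without library 8) and 0 among the 26 for deadenylation (without library 5, 7 or 8). Scaled by total counts these numbers were 2, 2 and 1. Against vehicle, the higher calls for initiation with both compounds went from 5 to 1 without library 7, 2 without library 8 or 9, 3 without vehicle library 1 and 8 without oxamate library 4. Those for deadenylation went from 10 to 6 without library 7 or vehicle library 1, and those of the other regulators from 10 to 6 without library 7. In the list for 3′ end formation, the 2 lower calls against vehicle (Pabpn1 and Cstf3) were both lost without library 7, 8 or 9 or vehicle library 1 or 2, with DESeq2, and with its size factors. At the octyl-L2HG step the call of Meioc was lost without library 7, 8 or 9, that of Cnot4 without library 5, 7 or 8, and those of Clp1 and Eif2s1 without library 7 or 8.

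The list counts for oxamate against vehicle moved with single libraries too. Without oxamate library 4 the number that fell went from 1 to 6 for initiation and from 0 to 3 for the other regulators, and the number that rose went from 4 to 7 for the other regulators, from 1 to 2 for initiation and from 1 to 4 for 3′ end formation. The number that rose for 3′ end formation was 0 without vehicle library 2 or 3, oxamate library 5 or 6, or library 8. For initiation it was 0 without vehicle library 1 or oxamate library 5, since the oxamate call of Eif5b was then lost. For the poly(A)-binding list it was 1 in place of 2 without vehicle library 1 or 2, oxamate library 5 or 6, or library 8 or 9. For deadenylation it was 1 in place of 3 without vehicle library 2, where Cnot3 was among the calls lost. Oxamate library 4 lay apart from libraries 5 and 6 in several of the genes named here, and without it each of the following was still called. For octyl-L2HG against oxamate the log2 fold change was then 0.20 for Ybx1, 0.18 for Pabpc2, 0.30 for Pabpc6, -0.21 for Clp1, -0.68 for Tob1, 0.32 for Eif5b, -0.54 for Pum2, -0.62 for Rbmxl2 and 0.24 for Meioc, the last from 0.37 with it. For oxamate against vehicle it was 0.75 for Fxr2, 0.48 for Eif5b and 0.56 for Pum2.

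Transcripts known for late translation in spermatids were called in 1 direction throughout. Of the 13 on that list, 5 fell with oxamate, 9 fell with octyl-L2HG against oxamate (those 5 and Prm3, Odf1, Gapdhs and Ace, which were not called with oxamate) and 11 were lower with both compounds than with vehicle, and none rose in any comparison. The medians were -0.12, -0.29 and -0.28. Prm1, which encodes the protamine that replaces histones in the sperm nucleus, had 5203, 4960 and 4583 normalized counts with vehicle, 3551, 3647 and 3575 with oxamate and 2976, 2868 and 2913 with both compounds. Prm1 had a log2 fold change of -0.45 ± 0.07 (SE) with oxamate (adjusted p = 2.24e-04, edgeR) and -0.77 ± 0.07 with both compounds (adjusted p = 1.11e-07). Prm2, the second protamine, fell with oxamate as well (-0.38 ± 0.06). Spem1, needed for shedding of the spermatid cytoplasm, had 2428, 2330 and 2155 with vehicle, 1810, 1955 and 1848 with oxamate and 1373, 1335 and 1259 with both compounds. The log2 fold change of Spem1 was -0.53 ± 0.07 at the octyl-L2HG step and -0.82 ± 0.07 against vehicle. Tnp2, a transition protein that precedes the protamines, fell by 0.43 ± 0.07 on the log2 scale at the octyl-L2HG step. In these RNA extracts of whole cell pools, fewer late round spermatids and less of these mRNAs per cell cannot be told apart. The number that fell with oxamate was 3 without vehicle library 1 or 2, and the number that fell at the octyl-L2HG step was 6 without library 8 and 9 or 10 under the other scalings and DESeq2. Papolb, Pabpc1 and Ddx4 were not called at the oxamate step and rose at the second, at which 9 of these 13 transcripts fell.

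The heptamer TCCATCA, a Y-box recognition sequence known from the protamine 3′UTR, occurred in the 3′UTR of 1 of the 13 transcripts, Prm1, beside 9.69% of the 16479 genes. These 13 have short 3′UTRs, with a median of 141 bases. Of the 10 regulators Ybx3 and Paip2 hold it. The sites in Prm1 and Ybx3 are shown with the heptamer in capitals, because Prm1 is the late-translated transcript with the largest fall under oxamate and Ybx3 encodes one of the proteins that bind such sequences.
Prm1, position 18 of the 3′UTR: agaatagcaagTCCATCAaaactcctgcg
Ybx3, position 213 of the 3′UTR: gccagcaagtgTCCATCAagctgtatccc

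**Figure D5:**
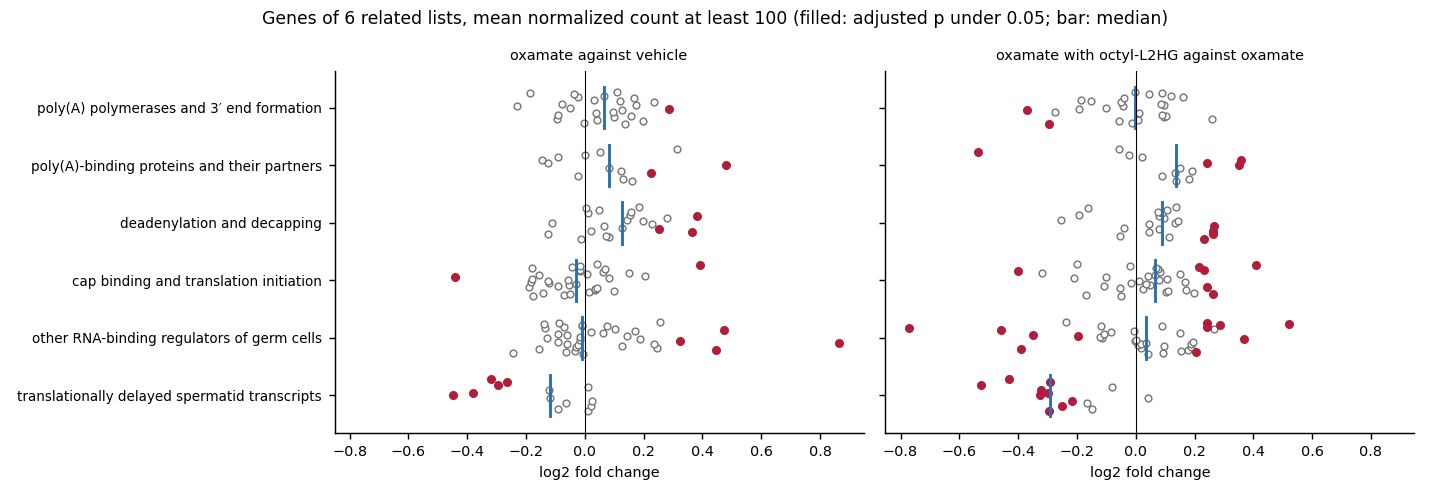
Log2 fold change (x axis) of genes averaging 100 normalized counts or more in the 6 related lists (y axis), for oxamate against vehicle on the left and octyl-L2HG with oxamate against oxamate on the right. Filled red points passed an adjusted p of 0.05, open points did not, and blue bars are medians. Of the 13 late-translated transcripts 9 lie below 0 on the left (5 filled) and 12 on the right (9 filled), and deadenylation genes have filled points only above 0.

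For the 3 members with the smallest p for any difference among the groups, the genes most like them across the 9 libraries were found by Pearson's r of log2(normalized count + 1) over 10714 genes averaging 100 normalized counts or more. Agtpbp1 (r = 0.997) and Gtpbp4 (0.995) followed Ddx4 most closely, Nsun7 (0.995) and Pdcd5 (0.994) followed Papolb, and Chmp4b (0.996) and Upf3a (0.989) followed Pabpc1. This is a description over libraries that share treatment, normalization and oxamate library 4, and 501 genes had an r above 0.9 with Ddx4, 375 with Papolb and 226 with Pabpc1.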

How the data were processed

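Sorted RS cells of 9 libraries were profiled by stranded sequencing of poly(A)-selected mRNA. Per the submitters' processing notes and the study's methods, the authors trimmed reads with cutadapt 2.10, aligned them with TopHat2 2.1.1 to GRCm39 with Ensembl annotation, and counted them with HTSeq 2.01. The deposited raw counts are whole numbers per gene, and the deposited normalized counts (a signal, each count divided by a DESeq2 1.36.0 size factor) were given by the authors beside them. The normalized counts are printed here as levels.

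Raw counts of genes with at least 10 counts over all libraries were fitted with edgeR 4.0.16 (R 4.3.3, TMM scaling, quasi-likelihood F test with robust dispersion, group as the only term, all 9 libraries), with Benjamini-Hochberg adjustment. DESeq2 1.42.0, other scalings and filters, and leaving out each library were alternatives. The code was tested on simulated data. The members, gene lists and tests were chosen with earlier results of these data known. Named genes of a list are the 2 with the largest change in each direction among those called that averaged 100 normalized counts or more. Lengths, 3′UTRs and promoters came from GENCODE vM21 and RefSeq (GRCm38.p6), another build than the files', matched by gene identifier or symbol. Depth per library ranged from 32339533 to 39888396 counts.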

Additional observations from a re-analysis of the deposited data

How the results depend on the processing

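The number of genes called for oxamate against vehicle was 745 with only the 2 groups fitted, 602 at an adjusted p under 0.01 and 659 to 2288 when 1 library was left out. For octyl-L2HG against oxamate it was 1261 at 0.01 and 1396 to 4415 with 1 library left out. Both compounds against vehicle gave 2607 and 2970 to 6194, and any difference 2774 and 3154 to 7328. Of the 10 regulators, oxamate against vehicle called 1 with filterByExpr, 1 with a mean of at least 100 and 0 to 2 with a library left out. Octyl-L2HG against oxamate called 1 with total counts, 2 with a mean of at least 100, 0 at 0.01 and 0 to 4 with a library left out. Both compounds against vehicle called 1 with DESeq2 size factors, total counts, DESeq2, filterByExpr or a mean of at least 100, 3 with no filter or only 2 groups, and 0 to 4 with a library left out. Any difference called 1 with total counts, 2 with a mean of at least 100, 0 at 0.01 and 0 to 5 with a library left out. In all 4 comparisons the highest number of genes came without oxamate library 4. A stricter threshold calls fewer genes by construction. For the other settings the cause was not tested.

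Some log2 fold changes turned sign, and none of these results was called. They were near 0 except that of Cpeb1 (0.35 at the octyl-L2HG step), which averaged 6.64 normalized counts. Total counts gave -0.0093 for Ybx2, -0.0018 for Ybx3 and -0.016 for Boll (both compounds against vehicle), and -0.041 for Boll, -0.024 for Paip1 and -0.027 for Cpeb4 (octyl-L2HG against oxamate). At that step Paip2 was 0.020 with DESeq2 size factors or test, 0.039 with no filter, 0.013 with filterByExpr and 0.015 with 2 groups, Paip2b was 0.0023 with DESeq2 size factors or test and 0.022 with no filter, and Boll was -0.011 with a mean of at least 100. Paip2 was 0.0028 for both compounds against vehicle with no filter. With 1 library left out, oxamate against vehicle ran from -0.059 to 0.028 for Ybx2, -0.086 to 0.0090 for Pabpc1, -0.076 to 0.021 for Paip2, -0.13 to 0.00091 for Ddx4 and -0.0019 to 0.11 for Boll. Octyl-L2HG against oxamate ran from -0.024 to 0.15 for Ybx2, -0.063 to 0.034 for Paip2, -0.055 to 0.037 for Boll, -0.054 to 0.17 for Papolg, -0.021 to 0.074 for Paip1, -0.061 to 0.029 for Paip2b, -0.089 to 1.29 for Cpeb1 and -0.055 to 0.071 for Cpeb4, and both compounds against vehicle from -0.038 to 0.14 for Ybx2. The cause was not tested.

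Of calls for octyl-L2HG against oxamate, 28.3% were higher, against 37.7% with DESeq2 size factors, 14.3% with total counts and 43.6% with DESeq2. For both compounds against vehicle the shares were 41.4%, 46.9%, 26.8% and 51.7%. No paired analysis was possible because the groups share no replicate numbers. With 3 libraries per group, changes below about the intervals given were not detectable.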
